A study of Sus scrofa with 40 samples.

Results

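ESD encodes esterase D, and 3 of the 15198 gene probes on the array were known to carry its name, CA779808.1_74, CD572572.1_138 and BQ598500.1_953. Names were known for the 683 probes that the study had listed as lower in the Basque breed, so an ESD probe outside that list would not have been found. The probes were taken by that name, and the gene was selected on measured values: the 3 probes stood in that list, and earlier results of these data had shown separate levels on CA779808.1_74. The breed difference and the levels are therefore given as a description, with no test. Esterase D is a serine hydrolase of the cytosol, also called S-formylglutathione hydrolase. Formaldehyde joins glutathione without an enzyme, the alcohol dehydrogenase ADH5 oxidises the adduct to S-formylglutathione, and esterase D splits this thioester into formate and free glutathione. The gene is expressed in many tissues, and its protein variants long served as genetic markers.

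The study compared the Longissimus muscle, a large muscle of the back, between Basque (B) and Large White (LW) pigs reared in 2 housing systems. Total RNA of each pig was labelled with Cy3 and hybridised together with a Cy5-labelled pool of RNA from all 40 pigs, on 1 array per pig and with no swap of the dyes. The 4 groups were B conventional, B alternative, LW conventional and LW alternative, with 10 pigs in each. By the study's methods all were castrated males, with 2 pigs taken from a litter, and the labels give a live weight of 145 kg. The study's authors also state that B pigs were older than LW pigs at slaughter and that the ration did not follow each breed's appetite, so breed, age and feeding cannot be told apart in any breed difference. The labels do not name the litter, so the pigs were analysed as separate animals. By the methods the 2 pigs of a litter were assigned to either housing system, and the housing tests took no account of litter. The 40 arrays came from 7 slides, each with pigs of both breeds, and were scanned over 3 days. A level is here the log2 ratio of a pig's Cy3 signal to the pool's Cy5 signal after the median of its array was subtracted, so that 1 unit is a 2-fold difference. The number of arrays limits the precision of every value.

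The muscle label was set beside marker genes, as a description. Probes of the fast myosin MYH1 and the skeletal actin ACTA1 were well above background on all 40 arrays, with median Cy3 signals of 38758 and 41292. Standing above background does not mark muscle, since 9591 of 15198 gene probes did so on all 40 arrays. Named probes of the fibroblast genes COL1A2 and DCN and the blood gene HBA2 did too, with median Cy3 signals from 115 to 1276. Probe names were tied to gene symbols here only through the study's list of probes lower in B. The study's list of probes higher in B was not used, since its probe names could not be matched to its genes, and the platform's annotation was not analysed here. The marker and pathway lists can thus hold probes lower in B alone, and no probe was named for slow fibres, fat cells, endothelium, leukocytes, satellite cells or Schwann cells.

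Arrays of 2 pigs stood apart from the others, and breed means, housing differences, spread and likeness are also given without them. After background correction and before centring, the median log2 ratio was -0.086 on the array of B alternative replicate 15. It was -1.54 on that of LW alternative replicate 18, whereas the other 38 arrays lay between -1.13 and -0.59. Before background correction the median Cy3 signals of these 2 arrays were 140 and 165, within a range of 128 to 165 over all 40 arrays. On these 2 arrays the deposited log2 ratios also followed the scanner's processed ratios less closely, with correlations across probes of 0.684 and 0.779 against 0.967 to 0.997 on the other 38. The levels used here followed the deposited ratios less closely over all 40 arrays, with correlations of 0.275 to 0.849 and a median of 0.704. B replicate 15 gave the lowest of these and LW replicate 18 the highest. Probes are not independent replicates, so these correlations describe arrays only.

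The sequences show how little the 3 probes have in common as reagents. Each is 60 bases long, and the longest stretch that any of them shares with another ESD probe is 7 bases. The 30 bases at the start of each are shown, and the part of the sequences in the differences between the probes was not tested.
CA779808.1_74: cagggttctgaaactgtaataaacagagtg
CD572572.1_138: aatgctataaatgcttccttctccaattga
BQ598500.1_953: gttgtttttagatcacaagagggttatgat
No other probe of the array came from the contigs of these 3. The G and C content was 35.0% for CA779808.1_74 and CD572572.1_138 and 38.3% for BQ598500.1_953, below the array's median of 45.0%. The longest stretch shared with any gene probe other than these 3 was 17 bases for CA779808.1_74, 14 for CD572572.1_138 and 13 for BQ598500.1_953. Where the 3 probes lie in the transcript was not determined, since pig genome and transcript sequences were not analysed here.

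The ESD spots were bright enough to be read on every array. All 3 probes stood well above background in both channels on 40 of 40 arrays, and none of their spots was saturated or marked as an outlier. On CA779808.1_74 the mean Cy3 signal was 1169 ± 464 (SD, n = 20) in B and 2114 ± 344 (SD, n = 20) in LW. The pool gave 3285 ± 342 on the arrays of B pigs and 3156 ± 394 on those of LW pigs at this probe. The breeds thus parted in the channel of the pigs, while the pool's signal differed by less than its SD.

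CA779808.1_74 held the largest breed difference of the 3. In B conventional pigs its level ran from -1.68 through a median of -0.37 to -0.19, and in B alternative pigs from -1.62 through -0.60 to -0.083. LW conventional pigs ran from -0.22 through 0.32 to 0.59, and LW alternative pigs from 0.057 through 0.37 to 0.99. The means were -0.75 ± 0.60 (SD, n = 20) in B and 0.33 ± 0.25 (SD, n = 20) in LW. Without the 2 arrays that stood apart they were -0.71 ± 0.59 and 0.30 ± 0.20 (SD, n = 19 each). LW pigs were high and B pigs low, with 17 of 20 B pigs below every LW pig and 19 of 20 LW pigs above every B pig. Over all 12222 tested probes 9.61% were called lower in B, at an adjusted P under 0.05 in limma. That is 1175 probes, against 1785 after loess, 417 without centring and 367 with the Cy3 signal alone after quantile scaling. It is a share of calls, and the share of probes whose pigs separate in this way was not computed. Nothing is read from the counts of pigs on any of the 3 probes, since they were chosen for this contrast. With the scanner's processed signals 20 of 20 B pigs lay below every LW pig.

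CD572572.1_138 held the smallest breed difference. Its level ran from -0.58 through -0.28 to -0.051 in B conventional pigs and from -1.47 through -0.41 to -0.16 in B alternative pigs. In LW conventional pigs it ran from -0.46 through -0.058 to 0.26, and in LW alternative pigs from -0.33 through 0.096 to 0.81. The breeds overlapped widely, with 6 of 20 B pigs below every LW pig, although all 20 B pigs lay below the LW median. The means were -0.38 ± 0.30 (SD, n = 20) in B and 0.0041 ± 0.27 (SD, n = 20) in LW. Without the 2 arrays that stood apart they were -0.33 ± 0.16 and -0.038 ± 0.19 (SD, n = 19 each).

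BQ598500.1_953 lay between the other two in the size of its breed difference. B conventional pigs ran from -0.97 through -0.42 to -0.22 and B alternative pigs from -1.75 through -0.57 to -0.17. LW conventional pigs ran from -0.51 through -0.072 to 0.26 and LW alternative pigs from -0.33 through 0.028 to 0.77. Here 9 of 20 B pigs lay below every LW pig, and all 20 lay below the LW median. The means were -0.59 ± 0.38 (SD, n = 20) in B and -0.020 ± 0.27 (SD, n = 20) in LW. Without the 2 arrays they were -0.53 ± 0.26 and -0.061 ± 0.20 (SD, n = 19 each).

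**Figure D1:**
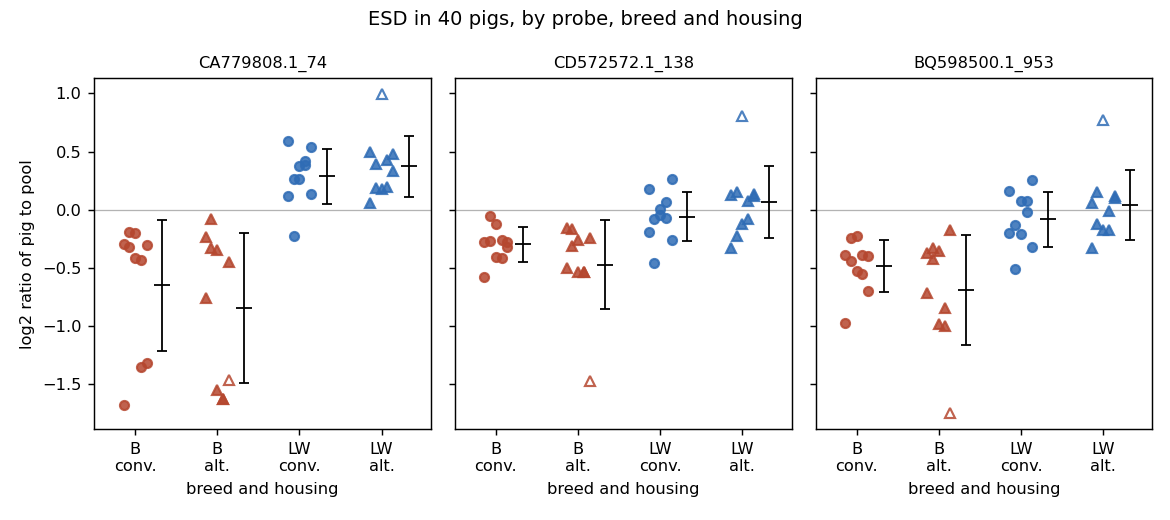
Level of each ESD probe (log2 ratio to the pool, array median subtracted) in the 4 groups of 10 pigs, with 1 point per pig, bars for the mean ± SD and open markers for B replicate 15 and LW replicate 18. On CA779808.1_74 the B pigs part at a gap between -1.31 and -0.75, while CD572572.1_138 and BQ598500.1_953 show no such gap apart from the array of B replicate 15.

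Fitted with slide as a term, the difference B minus LW was -1.05 (SE 0.14) on CA779808.1_74, -0.55 (SE 0.10) on BQ598500.1_953 and -0.38 (SE 0.091) on CD572572.1_138. The same gene thus gave breed differences of unequal size on its 3 probes. In order of level, B alternative was lowest on every probe, followed by B conventional, LW conventional and LW alternative, and the neighbouring groups of the same breed did not differ beyond their spread. Within each of the 7 slides the B mean lay below the LW mean on all 3 probes. The slide differences ran from -2.02 to -0.34 on CA779808.1_74, from -0.69 to -0.0018 on CD572572.1_138 and from -0.998 to -0.10 on BQ598500.1_953. Slide 2 gave the lowest of each with 1 pig of each breed, and slide 3 the highest. By scan day the differences on CA779808.1_74 were -0.88, -1.07 and -1.17. They were -0.086, -0.47 and -0.41 on CD572572.1_138 and -0.33, -0.63 and -0.59 on BQ598500.1_953. In RNA from whole muscle, fewer cells of a type and less RNA per cell cannot be told apart.

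The B pigs fell into 2 levels on CA779808.1_74, a pattern that helped to choose the gene and is described here without a test. The lower level held 7 pigs between -1.68 and -1.31, namely the conventional replicates 4, 6 and 10 and the alternative replicates 13, 14, 15 and 19, spread over 5 slides. The upper level held 13 pigs between -0.75 and -0.083, with 7 conventional and 6 alternative. Both housing systems were thus present in each level, and an empty stretch of 0.56 units lay between them. LW pigs formed 1 level on this probe, and both breeds formed 1 level on CD572572.1_138 and BQ598500.1_953. The 2 levels did not appear in B without centring of the arrays, with the Cy3 signal alone after quantile scaling, or once slide means were removed.

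The other 2 probes did not part the B pigs in the same place. B replicate 4 stood at -1.35 on CA779808.1_74, in the lower level, but at -0.26 on CD572572.1_138 and -0.39 on BQ598500.1_953, ranking 14 from the bottom of 20 on each. B replicate 10 stood at -1.31, -0.28 and -0.69 on the 3 probes in that order. Replicates 6, 13, 14 and 19 were low on CA779808.1_74, from -1.68 to -1.55, and held ranks from 2 to 5 on the other 2 probes. B replicate 15 stood at -1.46, -1.47 and -1.75, and this array depended on how it was processed. After loess its values were -0.67, -0.32 and -0.75, and with the scanner's processed signals they were -1.36, -0.33 and -0.80. LW replicate 18 changed too, from 0.99, 0.81 and 0.77 to 0.77, 0.63 and 0.57 after loess. On CA779808.1_74 LW replicates 4, 5, 6, 9, 15 and 16 then lay above it, from 0.82 to 0.98.

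The difference between 2 probes within a pig is free of the array median and shows where the probes part. For CA779808.1_74 minus CD572572.1_138, LW pigs gave 0.19 to 0.49 with a mean of 0.33 ± 0.078 (SD, n = 20), and B pigs gave -1.10 to 0.078. All 20 B pigs lay below every LW pig in this difference. Nothing is read from that count, since the probes were chosen for the breed contrast and no share over other pairs of probes was computed. Among B pigs, replicates 4, 6, 10, 13, 14 and 19 lay from -1.10 to -1.01 and the other 14 from -0.25 to 0.078. These 6 pigs were thus set apart by 0.76 units, with none between. B replicate 15, in the lower level on CA779808.1_74, gave 0.013 here, and with the scanner's processed signals it joined the 6 others below the gap. In the deposited ratios it did so too, and the largest gap was narrower there, at 0.40 units from -0.70 to -0.30.

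CA779808.1_74 minus BQ598500.1_953 gave 0.22 to 0.46 in LW pigs and -0.96 to 0.29 in B pigs. The same 6 B pigs lay lowest, from -0.96 to -0.57, and the next pig stood at -0.28. CD572572.1_138 minus BQ598500.1_953 varied less than the other 2 differences in B, with SDs of 0.14 against 0.48 and 0.39, and by a similar amount in LW, with 0.059 against 0.078 and 0.079. It had means of 0.20 ± 0.14 (SD, n = 20) in B and 0.024 ± 0.059 (SD, n = 20) in LW. The breeds overlapped in it, from -0.070 to 0.46 in B and from -0.10 to 0.16 in LW. These pair differences use the contrast that chose the probes, so they were not tested between breeds.

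**Figure D2:**
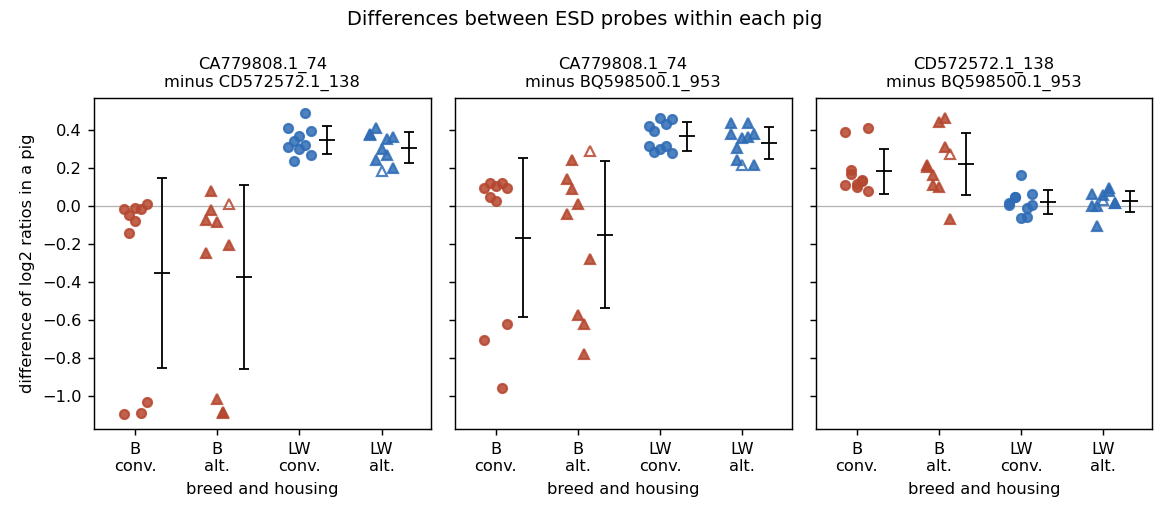
Differences between ESD probes within each pig (log2 units), with 1 point per pig by breed and housing and open markers for B replicate 15 and LW replicate 18. For CA779808.1_74 minus CD572572.1_138, 6 B pigs lie from -1.10 to -1.01 and all 20 LW pigs lie above 0.

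Within LW the 3 probes rose and fell together from pig to pig. CD572572.1_138 and BQ598500.1_953 gave r = 0.976 and rho = 0.934 over 20 LW pigs. CA779808.1_74 gave r = 0.957 and rho = 0.917 with CD572572.1_138, and r = 0.957 and rho = 0.884 with BQ598500.1_953. In B, CD572572.1_138 and BQ598500.1_953 gave r = 0.940 and rho = 0.938 over 20 pigs. Each r and rho of these 4 relations had a two-sided permutation P of 1e-05, the smallest that 100000 permutations can give, and an adjusted P of 2e-05 over the family of 8 relations computed. Each P tests r against 0 only. The probes share each array, its median and the pool, and probes of other contigs also reached a high r with them, so the P does not show that ESD probes were more alike than other pairs. Without the 2 pigs farthest from the median, r was 0.934, 0.909, 0.903 and 0.876 in the order given. These relations also held within scan days: on day 2, with 10 pigs of each breed, r ran from 0.902 to 0.983, and on day 3, with 7 of each, from 0.924 to 0.981. Day 1 held 3 pigs of each breed, too few for a correlation.

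CA779808.1_74 was set against the other 2 probes within each of its levels in B, since a pooled r would count the gap. In the 13 pigs of the upper level it gave r = 0.836 (permutation P = 0.00028, adjusted P = 0.000448) and rho = 0.731 (permutation P = 0.00617, adjusted P = 0.00987) with CD572572.1_138. Leaving out the 2 farthest pigs gave r = 0.814. With the Cy3 signal alone after quantile scaling r was 0.566 and no longer passed (permutation, adjusted P = 0.0576, from 0.00032 over the alternatives). The 8 pigs of day 2 gave r = 0.796 (exact permutation P = 0.0296, adjusted P = 0.0328) and rho = 0.571 (exact permutation P = 0.151). With BQ598500.1_953 it gave r = 0.689 (permutation P = 0.0119, adjusted P = 0.0159) and rho = 0.527 (permutation P = 0.0673, adjusted P = 0.0897). That relation rested on B replicates 11 and 12, without which r was 0.401, and without replicate 11 alone r was 0.384 (adjusted P = 0.292). On day 2 it gave r = 0.675 (exact permutation over 8 pigs, adjusted P = 0.0661) and rho = 0.476 (exact permutation P = 0.243).

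In the 7 pigs of the lower level no relation passed the test. CA779808.1_74 gave r = 0.153 (exact permutation P = 0.789, adjusted P = 0.789) and rho = 0.50 (exact permutation P = 0.267, adjusted P = 0.305) with CD572572.1_138. With BQ598500.1_953 it gave r = 0.277 (exact permutation P = 0.583, adjusted P = 0.666) and rho = 0.321 (exact permutation P = 0.498, adjusted P = 0.498). Single pigs decided both values. Without B replicate 15, r was 0.973 (exact permutation, adjusted P = 0.0175) and 0.816 (exact permutation, adjusted P = 0.0528) over 6 pigs. Without replicate 4 it was -0.044 and -0.033, and without replicate 10 it was -0.083 and 0.146. Leaving out replicates 4 and 10, the 2 farthest from the median, left 5 pigs and gave r = -0.824 and r = -0.840, so no relation is read from this level. No scan day held 6 pigs of this level.

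**Figure D3:**
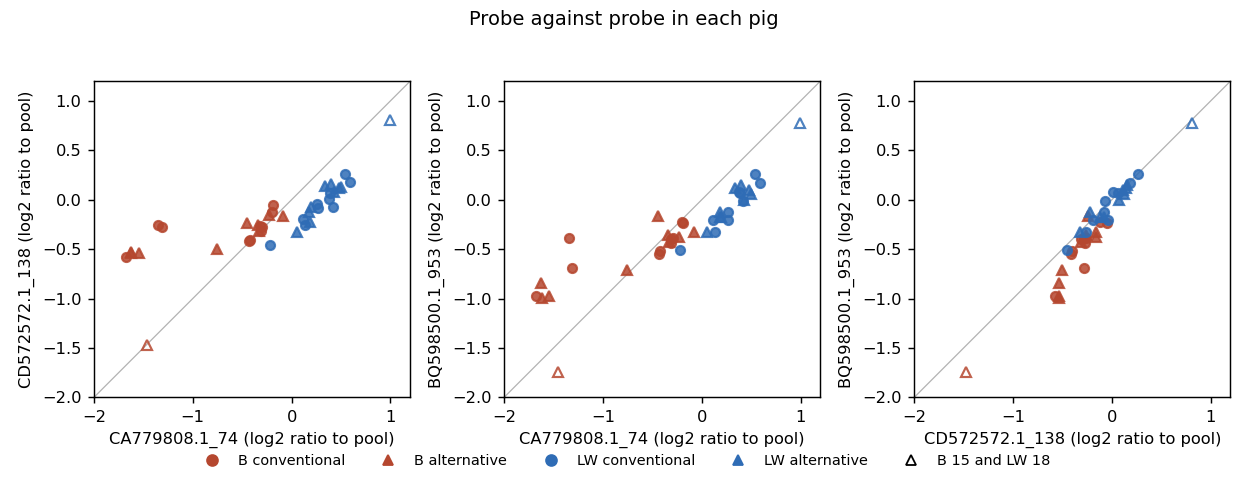
Level of each ESD probe against another in each of the 40 pigs (log2 ratio to the pool, array median subtracted), by breed and housing, with open markers for B replicate 15 and LW replicate 18. In LW r runs from 0.957 to 0.976, and for CA779808.1_74 against CD572572.1_138 all 20 B pigs lie off the LW points, 6 of them farthest.

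Housing asked whether ESD RNA differed between pigs reared in the alternative and the conventional system, and this contrast played no part in choosing the probes. No ESD probe passed the test. Over both breeds, alternative minus conventional was -0.010 (SE 0.15, P = 0.947) on CA779808.1_74, -0.013 (SE 0.094, P = 0.892) on CD572572.1_138 and -0.035 (SE 0.11, P = 0.748) on BQ598500.1_953, with adjusted P of 1.00 for each. These differences were smaller than their errors. In limma 0 of 12222 probes were called for housing over both breeds, or 0%, while 338 had an unadjusted P under 0.05, and a two-step analysis also called 0, with 323 under 0.05. The two-step analysis removed slide effects before the test where they passed 0.05, as the methods did, but on the ratios and the 12222 probes used here and not on the scaling and filter of the methods.

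Within breeds the estimates had opposite signs, without passing the test in either. In B they were -0.12 (SE 0.21, P = 0.550), -0.15 (SE 0.13, P = 0.263) and -0.18 (SE 0.15, P = 0.227) on CA779808.1_74, CD572572.1_138 and BQ598500.1_953, each with an adjusted P of 0.999. In LW they were 0.10 (SE 0.21, P = 0.628), 0.12 (SE 0.13, P = 0.371) and 0.11 (SE 0.15, P = 0.469), each with an adjusted P of 1.00. The fit gave all groups 1 estimate of spread per probe, so the SEs do not follow the spread of each breed. On CA779808.1_74 the SD was 0.56 in B conventional and 0.64 in B alternative pigs, which hold the 2 levels. It was 0.24 in LW conventional and 0.26 in LW alternative pigs. The difference between the breeds in housing effect was tested as the interaction, which gave -0.23 (SE 0.29, P = 0.439), -0.27 (SE 0.18, P = 0.152) and -0.30 (SE 0.21, P = 0.170), each with an adjusted P of 0.968. These estimates were nearer 0 without the 2 arrays that stood apart. Without them housing in B gave -0.061, -0.029 and -0.062, housing in LW gave 0.069, 0.062 and 0.056, and the interaction gave -0.13, -0.090 and -0.12, with adjusted P of 1.00 for each. A P that misses the threshold does not show that the values did not differ. For housing in B, housing in LW and the interaction limma called 0 probes each, or 0%, with 294, 360 and 323 at an unadjusted P under 0.05. The two-step analysis called 0 in each as well, with 291, 550 and 540 under 0.05.

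By scan day the signs varied, and several rested on the 2 arrays. On CA779808.1_74 in B, alternative minus conventional was -0.69 on day 1, -0.21 on day 2 and 0.10 on day 3. In LW it was -0.017, 0.072 and 0.20 on those days. On CD572572.1_138 it was -0.12, -0.058 and -0.36 in B and -0.016, 0.13 and 0.25 in LW. On BQ598500.1_953 it was -0.29, -0.050 and -0.39 in B and 0.10, 0.065 and 0.28 in LW. Without LW replicate 18 the day 2 value in LW turned to -0.059, -0.027 and -0.099 on CA779808.1_74, CD572572.1_138 and BQ598500.1_953, the same sign as in B. Without B replicate 15 the day 3 value in B was 0.31, -0.065 and -0.079. Day 1 held 2 alternative pigs and 1 conventional pig of each breed. Housing also left the distances between probes without a called difference. The 6 tests of pair differences within a breed gave permutation P from 0.296 to 0.926, and each had an adjusted P of 0.926.

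Within groups and slides ESD varied between pigs more than most probes did, least so on CD572572.1_138. On CA779808.1_74 the residual SD was 0.47, larger than that of 97.8% of tested probes, and 0.47, above 97.9%, without the 2 arrays that stood apart. That spread includes the levels that helped to choose the gene. On BQ598500.1_953 it was 0.34, above 93.0% of probes, and 0.25, above 86.2%, without the 2 arrays. On CD572572.1_138 it was 0.29, above 88.9%, and 0.18, above 67.4%, without them, so the rank of this probe rested on those arrays.

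Likeness was then ranked over the 40 pigs by the r of residuals, once group and slide means were removed, among 12219 other probes. For CA779808.1_74 the most alike probe was BQ598500.1_953 (r = 0.782), and CD572572.1_138 ranked 3 (r = 0.647). The most alike probes of other contigs were CB287866.1_1275 (r = 0.650), a probe of RNASEH2B (r = 0.623) and BQ604476.1_1142 (r = 0.557). RNASEH2B encodes a subunit of ribonuclease H2, which removes ribonucleotides from DNA, and it lies on the chromosome of ESD in Sscrofa11.1, with 24 protein-coding genes between. The share of all probes on that chromosome was not computed, so nothing is read from this position. CD572572.1_138 and BQ598500.1_953 were most alike each other (r = 0.946). The pigs of all groups share the pool and the slides, so these r are descriptions with no P. Removing group means leaves the 2 levels of B pigs on CA779808.1_74 in the residuals. Each r with that probe, that of RNASEH2B included, thus counts the gap that helped to choose the gene.

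Leaving out the 2 arrays that stood apart, or using loess, moved the ranks for CD572572.1_138 and the most alike probes for BQ598500.1_953. With all 40 arrays CA779808.1_74 ranked 691 for CD572572.1_138. The most alike probes of other contigs were CF791102.1_2678 (r = 0.831), CN027555.1_1097 (r = 0.825) and CF179890.1_915 (r = 0.818). For BQ598500.1_953 these were CN027555.1_1097 (r = 0.763), CF181403.1_641 (r = 0.746) and CF791102.1_2678 (r = 0.745). Without the 2 arrays, a setting chosen after seeing the data, the other ESD probes ranked 1 and 2 for each ESD probe, with r of 0.854, 0.747 and 0.907. The next probe was then one of PRPS2, an enzyme of nucleotide synthesis, for CD572572.1_138 (r = 0.658), and CJ008165.1_704 for BQ598500.1_953 (r = 0.581). After loess on all 40 arrays CA779808.1_74 ranked 2 for CD572572.1_138 (r = 0.711). The most alike probes of other contigs were then BM190195.1_539 for CD572572.1_138 (r = 0.508) and BQ599956.1_1006 for BQ598500.1_953 (r = 0.566). RNASEH2B remained among the most alike for CA779808.1_74, with r = 0.593 without the 2 arrays and 0.601 after loess. Of the other genes named among the most alike in these settings, PRPS2 and USP1 do not lie on the chromosome of ESD. The last, C6ORF70, was not in the annotation.

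The other genes of the pathway could be followed only where the study's list of probes lower in B named them. That list was chosen on these samples, so its direction is not independent evidence, and 509 of its 683 probes were called lower in B here. Of 17 other genes of formaldehyde and thioester hydrolysis, 1 was named, GLOD4, of the glyoxalase domain family. Its 2 probes gave -0.90 (SE 0.078) and -0.64 (SE 0.047), and both were called. Of 23 genes of glutathione synthesis and recycling, 1 was named, GGCT, which breaks down gamma-glutamyl peptides, at -0.39 (SE 0.050) and called. Of 23 genes of glutathione use, 2 were named, the peroxidases GPX8 at -0.99 (SE 0.12) and -0.82 (SE 0.099) and GPX7 at -0.23 (SE 0.041), and all 3 probes were called, or 2 of them without centring. Of 22 carboxylesterases and other hydrolases, 1 was named, EPHX2, the soluble epoxide hydrolase, at -0.59 (SE 0.15) and called. The medians of these lists in the order given were -0.77, -0.39, -0.82 and -0.59, beside 0.00040 over all tested probes and -0.26 over the study's list. With the scanner's processed signals the value of GGCT was -0.70. The enzymes before and after esterase D, ADH5 among them, could not be found by name.

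Markers of other cells were counted in the same way and with the same limit. Of 11 muscle fibre genes 2 were named: MYH1 gave -0.66 (SE 0.15) and was called, and ACTA1 gave -0.29 (SE 0.16, adjusted P = 0.194). Of 6 fibroblast genes 2 were named, with COL1A2 at -0.50 (SE 0.17), called, and -0.18 (SE 0.071, adjusted P = 0.070), and DCN at -0.17 (SE 0.097, adjusted P = 0.219). Of 4 blood genes 1 was named, the haemoglobin gene HBA2, at -0.44 (SE 0.23, adjusted P = 0.189) and -0.39 (SE 0.24, adjusted P = 0.279). The list medians were -0.48, -0.18 and -0.42. That of the fibroblast list was -0.45 with the scanner's processed signals and -0.11 with no centring. None of the 14 probes of these lists and of the pathway lists was called for housing in limma. The part of these cell types in the ESD difference was not tested. Of the 20 protein-coding genes nearest to ESD in Sscrofa11.1, 10 on each side from FNDC3A to COG3, none was named, so whether genes beside ESD moved with it was not tested.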

How the data were processed

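The authors deposited scanner output, with spot signals in units of intensity, and a table of normalised log2 ratios of Cy3 to Cy5. The ESD members and the gene lists were chosen with earlier results of these data known. Mean signals were background corrected (normexp, offset 50), log2 ratios were formed, and each array was centred on its median. The scanner's outlier marks removed 2396 gene spots, while 83 saturated spots stayed in. A probe was tested if the Cy3 signal of 10 or more pigs of 1 breed stood well above background, which held for 12222 of 15198. limma 3.58.1 in R 4.3.3 fitted breed, housing, their interaction and slide to all of them, with Benjamini-Hochberg adjustment and a threshold of 0.05. Levels were described with mclust 6.1.1, with at least 3 pigs in each and a gain of 10 in BIC, which is no test here. The version of limma used by the authors was not given. Correlations were planned as a family of 6, and the levels in B made it 8. Permutation tests were two-sided, with 100000 resamples, and exact below 10 pigs.

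Named genes were the ESD probes, for each of them the 3 probes of other contigs with the highest r, and the genes of each list that a table pairs with a probe. Alternatives changed the background correction, the centring, the measure, outlier spots, the filter, the model, array weights and the arrays included. Array replicate numbers do not pair pigs across breeds: over 20 pairs with the same number, r had a median of -0.018. The number of sample columns that could not be mapped was 0.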

Additional observations from a re-analysis of the deposited data

Results flagged for a closer look

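Of 24 sets of 10 pigs, 5 held 1 pig far from the rest on a single ESD probe, and all 5 came from the 2 arrays that stood apart. B alternative replicate 15 was lowest on CD572572.1_138, at -1.47 with the next pig at -0.54, and on BQ598500.1_953, at -1.75 with the next at -0.998. LW alternative replicate 18 was highest on CA779808.1_74, at 0.99 with the next at 0.50. It was also highest on CD572572.1_138, at 0.81 with the next at 0.16, and on BQ598500.1_953, at 0.77 with the next at 0.15. In 1 more set, CD572572.1_138 minus BQ598500.1_953 in LW alternative pigs, replicate 17 was lowest at -0.10 with the next pig at 0.00013. After loess LW replicate 18 stood at 0.77, 0.63 and 0.57 on the 3 probes. On CA779808.1_74 it then lay below replicates 15 and 16 of its group, at 0.82 and 0.88. B replicate 15 stood at -0.32 on CD572572.1_138 and -0.75 on BQ598500.1_953 after loess. Chance marks about 1 in 20 such sets. With no background correction the largest gap among B pigs on CD572572.1_138 was 0.12, with 18 pigs below it. In the main values it was 0.89, with 1 pig below, and with a normexp offset of 16 it was 1.10, with 1 below. Among LW pigs on that probe the largest gap was 0.13 with no background correction and 0.54 in the main values. The part of array quality and of background correction in these values was not tested.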

How the results depend on the processing

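The breed difference of each ESD probe kept its sign in 17 of 17 alternatives, from -1.15 to -0.88 on CA779808.1_74, -0.39 to -0.30 on CD572572.1_138 and -0.58 to -0.47 on BQ598500.1_953, and with each of the 40 pigs left out in turn. No alternative brought a housing difference or interaction of an ESD probe past the threshold. In the replicate block the breed differences were -1.07, -0.38 and -0.57, the interactions -0.13, -0.20 and -0.20, and 949 and 1257 probes were called lower and higher in B.

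The housing difference over both breeds lay near 0 and changed sign. On CA779808.1_74 it was 0.011 after loess, 0.021 with Cy3 after Rquantile (quantile scaling on the pool), 0.0070 in the series matrix (the deposited ratios), 0.0040 with arrays B 15 and LW 18 left out and 0.051 with array weights. On CD572572.1_138 it was 0.018 with processed signals, 0.018 after loess, 0.034 after Rquantile, 0.017 in the series matrix, 0.016 without the 2 arrays and 0.028 with weights. On BQ598500.1_953 it was 0.018 with weights. With each pig left out in turn it ran from -0.071 to 0.056, -0.051 to 0.055 and -0.072 to 0.034 on the 3 probes in that order. Housing in B ran from -0.24 to -0.012, -0.20 to -0.016 and -0.25 to -0.050, housing in LW from 0.052 to 0.18, 0.058 to 0.17 and 0.053 to 0.17, and the interaction from -0.36 to -0.13, -0.32 to -0.14 and -0.36 to -0.17. The values nearest 0 came without B 13, B 15 and B 15 for housing in B, LW 7, LW 18 and LW 18 for housing in LW, and B 19, B 15 and B 15 for the interaction. Without the 2 arrays housing in LW on day 2 was -0.059, -0.027 and -0.099. On CD572572.1_138 Rquantile gave 0.037 for housing in B and 0.0059 for the interaction. The housing effect on CA779808.1_74 minus BQ598500.1_953 in B was -0.064 with no background correction, -0.060 with processed signals, -0.025 after Rquantile, -0.036 in the series matrix and -0.033 without the 2 arrays.

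The lower-level correlations in B changed most. For CA779808.1_74 and CD572572.1_138 r was 0.894 with no background correction (exact permutation, adjusted P = 0.0336), -0.22 after loess, -0.15 after Rquantile and 0.973 without the 2 arrays (adjusted P from 0.0175 to 0.789 over alternatives). For CA779808.1_74 and BQ598500.1_953 it was 0.801 with no background correction, 0.772 with processed signals and -0.10 after loess (adjusted P from 0.0393 to 0.788). With single pigs left out these r ran from -0.083 to 0.973 and from -0.033 to 0.816. In the upper level CA779808.1_74 and CD572572.1_138 gave 0.566 after Rquantile (adjusted P = 0.0576, from 0.00032 over alternatives), and CA779808.1_74 and BQ598500.1_953 ran from 0.384 to 0.905 with single pigs left out.

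B pigs formed 1 level on CA779808.1_74 with no centring, after Rquantile and with slide means removed, and 2 on BQ598500.1_953 with no centring. Probes called lower in B were 1774 with processed signals, 1785 after loess, 417 with no centring and 367 after Rquantile, against 1175. Those called higher in B were 2260 with no background correction, 2257 without the 2 arrays and 2271 with weights, against 1418. The lower share of calls was 45.3%, and 17.0% with no centring, 15.7% after Rquantile. Fibroblast probes called lower in B were 2 with no background correction, processed signals and loess, against 1, and those of glutathione use were 2 with no centring, against 3. Leaving out B 15 and LW 18 in the gene lists, the residual SD, the scan days and the likeness, and loess in the likeness, were chosen after seeing the data. The cause of these changes was not tested. The part of spot brightness in the change of the lower-level correlations was not tested.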
